A study of Mus musculus with 11 samples.

Results

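The genes described here are the MCM helicase and origin licensing genes, a set of 10 genes found by the Ensembl identifier of their mouse symbol among the 48795 genes of the deposited table. They are Mcm2, Mcm3, Mcm4, Mcm5, Mcm6 and Mcm7, which encode the subunits of the ring-shaped replicative helicase; Mcm10, which encodes a factor that acts when the loaded helicase is switched on; Cdc6 and Cdt1, which encode the loaders; and Gmnn, which encodes geminin, the inhibitor of CDT1. All 10 passed the minimum of 1 TPM on average in both comparisons below, so no member is left out of any count.

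In G1, the origin recognition complex (ORC), CDC6 and CDT1 load MCM2-7 rings in an inactive form onto origins of replication, a step called licensing. In S phase, kinases, CDC45 and the GINS complex turn the loaded rings into moving helicases, while geminin and protein turnover keep CDT1 from loading more, so that each stretch of DNA is copied once per cycle. The genes are best known as markers of cells that cycle or are about to, and germinal center (GC) B cells are among the fastest cycling cells of an adult mouse, whereas memory B cells (MBCs) mostly rest.

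RNA was sequenced in bulk from splenic B cells of C57BL/6 female mice of 8 to 12 weeks, sorted on day 10 after intravenous immunization with sheep red blood cells. The 3 groups were light zone (LZ) GC B cells of 4 Myc WT mice, LZ B cells of 4 Myc V394D mice, and MBCs of 3 of the same Myc WT mice (mice 1, 3 and 4), with 1 library per mouse and cell type. V394D is a change of the endogenous MYC protein that removes its contact with MIZ1, a partner through which MYC represses genes, and leaves its pairing with MAX. The allele lies at the endogenous Myc locus and is not limited to B cells, and TPM cannot show it, so the genotype labels were not checked here. LZ cells were gated as B220+, CD138neg, CD38Neg (CD38low in the study's methods), Fas+, CD86high and CXCR4low, and MBCs as B220+, CD138neg, IgDneg, CD38+ and CD273+. The titles carry mouse codes that begin in 2 ways among the Myc WT mice and in another among the Myc V394D mice; what the codes stand for is not given, and anything they mark cannot be told apart from the genotype. The values are TPM, in which RSEM's read estimates are taken per transcript length and every library is brought to the same total, so levels can be compared between genes, but the depth is unknown and the precision of a value is known only from the spread between mice.

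The libraries differed in ways that touch the values below. Genes above 0 TPM numbered 15460 to 19537 in Myc WT LZ, 13169 to 16421 in Myc V394D LZ and 11527 to 16040 in MBCs. Ribosomal RNA genes took 35.7 to 44.5% of TPM in Myc WT LZ, 44.1 to 61.3% in Myc V394D LZ and 36.1 to 37.5% in MBCs. Correlation across genes was 0.915 to 0.952 between Myc WT LZ libraries, 0.8288 to 0.880 between Myc V394D LZ libraries and 0.655 to 0.753 between MBC libraries. Of 6668 genes with at least 10 TPM on average in LZ libraries, 253 were listed at 0 in MBC mouse 1, 421 in MBC mouse 3 and 57 in MBC mouse 4, against 34 to 69 in any LZ library. The GC and memory labels were checked against marker lists: the summed TPM of 7 GC genes was 1277 to 1555 in Myc WT LZ, 1092 to 1553 in Myc V394D LZ and 323 to 445 in MBCs, and that of 8 memory genes was 41.0 to 57.1, 18.3 to 37.7 and 646 to 941. The sum of 5 light zone genes did not separate the groups, at 450 to 741, 378 to 490 and 362 to 562 TPM. The sum of 6 plasma cell genes was 229 to 381 TPM in Myc WT LZ, 134 to 221 in Myc V394D LZ, without overlap, and 193 to 402 in MBCs. Jchain made up most of it in LZ, at 152 to 280 TPM in Myc WT and 67.1 to 144 in Myc V394D. Of the 4 plasma cell genes tested between the LZ groups, 1 lay lower without overlap, against 9.16% of all genes tested. None of them passed after adjustment by limma. The sum of 6 naive follicular B cell genes was 367 to 371 TPM in Myc WT LZ and 1030 to 1120 in MBCs. The sum of 6 erythroid genes was 6713 TPM in MBC mouse 3, against 7.60 and 53.4 in the other MBC libraries. In LZ it was 116 to 226 TPM in Myc WT and 343, 410, 352 and 71.9 TPM in Myc V394D mice 1 to 4. By limma, 3 of the 6 genes were higher in Myc V394D LZ at an unadjusted p under 0.05, against 160 of all 12869 genes tested, and 0 after adjustment. The sum of 6 myeloid genes was 167 TPM in MBC mouse 4, against 14.0 and 43.0 in MBC mice 1 and 3 and 0 to 12.6 in LZ, and only MBC mouse 4 and Myc V394D mouse 1 had over 10 TPM of 6 T cell genes (30.1 and 11.1). The part of these transcripts in the results below was not tested; the counts and differences of the members that an MBC library moves by over 1.5 times are given also without it.

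Licensing genes are textbook targets of E2F transcription factors, and MYC binds the E-box, so the promoters of the members were read for both motifs and for the CCAAT box. RefSeq promoters (GRCm38.p6, 250 bases before to 50 after the start) were matched by symbol for 8 of the 10 members, with 9 start sites because Mcm7 has 2; Mcm4 and Gmnn had no entry. The E2F letters searched, on both strands, were TTTCCCGC, TTTCGCGC, TTTGCCGC and TTTGGCGC. They were found in 6 of 9 member promoters (Mcm3, Mcm5, Mcm6, the first start site of Mcm7, Cdt1 and Cdc6), against 2.27% of all 32851 promoters of this length, and before the start in 4 of 9, against 1.86%. The E-box CACGTG was in 0 of 9, against 7.15% of all promoters, and CCAAT was in 7 of 9, against 37.4%. A match is a description of letters, and these data hold no binding.

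The bases before the start are shown for Mcm5 and Mcm6, in which E2F matches overlap each other, and for Mcm10, which fell in MBCs below and has no E2F match; capitals mark the E2F letters. The start of Mcm6 is preceded by 3 matches, at -110, -106 and -47 from the start, and that of Mcm5 by 2, at -153 and -149. The Mcm5 sequence is chr8:75109259-75109508 on the plus strand, the Mcm6 sequence chr1:128359706-128359955 on the minus strand and the Mcm10 sequence chr2:5012792-5013041 on the minus strand.
Mcm5: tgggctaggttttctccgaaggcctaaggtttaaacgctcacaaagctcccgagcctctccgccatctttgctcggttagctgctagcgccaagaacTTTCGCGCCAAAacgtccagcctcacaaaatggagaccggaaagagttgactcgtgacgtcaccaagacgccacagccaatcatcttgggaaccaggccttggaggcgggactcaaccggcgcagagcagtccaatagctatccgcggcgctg
Mcm6: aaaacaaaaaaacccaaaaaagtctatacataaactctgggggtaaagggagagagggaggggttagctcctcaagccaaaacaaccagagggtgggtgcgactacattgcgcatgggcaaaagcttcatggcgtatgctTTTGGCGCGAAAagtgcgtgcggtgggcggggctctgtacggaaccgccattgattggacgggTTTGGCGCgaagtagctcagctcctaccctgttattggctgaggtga
Mcm10: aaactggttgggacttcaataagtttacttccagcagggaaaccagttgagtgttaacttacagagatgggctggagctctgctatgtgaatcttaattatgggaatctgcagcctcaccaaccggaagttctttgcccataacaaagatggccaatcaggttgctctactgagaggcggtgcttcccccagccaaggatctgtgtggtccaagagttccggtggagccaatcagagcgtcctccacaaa
The matches of Mcm3 (at +20 and +39) and Cdt1 (at +33) lie past the start and are not printed. The RefSeq starts of Mcm7 and Cdc6 lie inside the GENCODE gene, so the bases before them can be transcribed and are not printed either.

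In Myc WT LZ B cells the ring subunits were abundant and stood in a fixed order. Mean TPM (± SD, n = 4) was 229 ± 51.9 for Mcm3, 164 ± 38.5 for Mcm6, 124 ± 21.2 for Mcm7, 98.0 ± 24.9 for Mcm4, 56.7 ± 13.9 for Mcm2 and 54.1 ± 18.02 for Mcm5. The order from Mcm3 down to Mcm2 was the same in 4 of 4 libraries, although the ranges of neighbours overlapped, since all subunits moved with the library. Mcm10 (56.2 ± 18.1) stood beside Mcm2 and Mcm5, and these 3 changed places between mice. Gmnn, at 48.3 ± 18.7, did not differ from these 3 beyond its spread. The loaders were lower, with Cdc6 at 18.4 ± 3.27 and Cdt1 at 16.3 ± 4.44, and Cdc6 and Cdt1 did not differ beyond their spread. Mouse 3 was the highest Myc WT library for 9 of 10 members and mouse 4 the lowest for 7 of 10. The title code of mouse 4 begins differently from those of the other Myc WT mice, and the part of this was not tested.

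**Figure D1:**
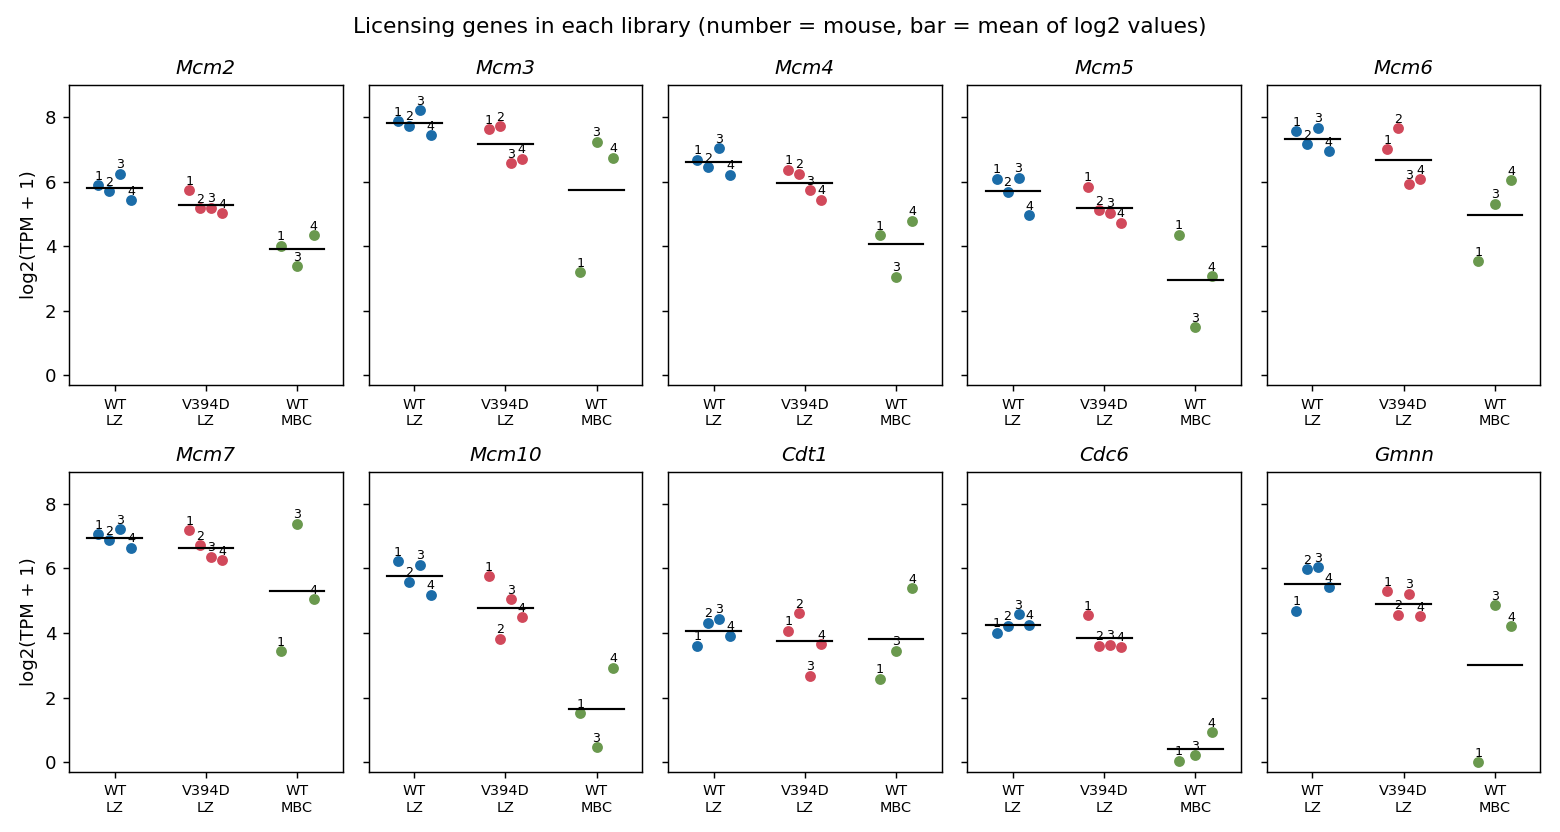
Level of each of the 10 licensing genes in each library, as log2(TPM + 1), for LZ B cells of 4 Myc WT and 4 Myc V394D mice and MBCs of 3 Myc WT mice; each point is a library numbered by its mouse and each bar the mean of the log2 values. The 2 LZ groups overlap for every gene, and the MBC libraries lie below all Myc WT LZ libraries for 7 of the 10, with Cdc6 between 0.03 and 0.89 TPM.

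The first comparison asked whether LZ B cells with Myc V394D differed from Myc WT LZ B cells in these genes. All 10 members had a lower mean in Myc V394D LZ, from -0.32 for Mcm7 and Cdt1 to -1.0 for Mcm10 on the log2(TPM + 1) scale (with median-ratio scaling Mcm7 turned to 0.019, and without Myc V394D mouse 3 Cdt1 turned to 0.037), but 0 of 10 passed the test. The test was limma with Benjamini-Hochberg adjustment over 12869 genes, in which 6 genes (0.0466%) passed in either direction; the smallest adjusted p of a member was 0.234 (Mcm10). At an unadjusted p under 0.05, 3 of 10 were lower (Mcm3, Mcm4 and Mcm10), against 15.7% of all genes tested. That share depended on the scaling: 2020 genes were lower and 160 higher here, 941 lower and 652 higher with ribosomal RNA genes removed, and 809 lower and 709 higher with median-ratio scaling, and 0 of 10 members were lower at this p in both of the latter. Ranges of the groups overlapped for all 10, whereas 9.16% of all genes tested lay lower without overlap. The direction was shared widely, since 73.7% of all genes tested had a difference below 0 and their median was -0.31; the median of the members was -0.58, thus -0.27 relative to it. Ribosomal RNA shares were higher in the Myc V394D libraries (above), and with ribosomal RNA genes removed the all-gene median was -0.05 and that of the members -0.28, a difference of -0.23 between the medians.

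Mcm10 had the largest difference with all libraries; without Myc V394D mouse 2 it was -0.68, less than that of Mcm6 (-1.01), and without Myc WT mouse 1 it was -0.85, less than that of Gmnn (-0.91). Mcm10 was at 74.0, 47.0, 68.5 and 35.4 TPM in Myc WT LZ mice 1 to 4 and at 53.2, 13.2, 32.0 and 21.5 TPM in Myc V394D LZ mice 1 to 4. Mice 2 to 4 of the Myc V394D group thus lay below every Myc WT library, and mouse 1 lay within their range (log2 difference -1.0, SE 0.39, adjusted p = 0.234 by limma, exact permutation p = 0.114). Mcm4, a ring subunit, was at 101, 86.7, 131 and 73.0 TPM in Myc WT and at 81.9, 74.7, 52.5 and 42.7 TPM in Myc V394D, where mice 3 and 4 lay below all Myc WT mice (-0.65, SE 0.27, adjusted p = 0.253). Mcm3, a ring subunit, was at 233, 212, 297 and 173 TPM in Myc WT and at 196, 209, 94.6 and 104 TPM in Myc V394D (-0.66, SE 0.29, adjusted p = 0.279). Again Myc V394D mice 1 and 2 lay within the Myc WT range and mice 3 and 4 below it.

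The other ring subunits also overlapped between genotypes. Mcm2 was at 58.7, 51.4, 74.9 and 42.0 TPM in Myc WT and at 52.3, 35.02, 35.7 and 31.7 TPM in Myc V394D, so that only mouse 1 of the latter reached the Myc WT range (-0.54, SE 0.25, adjusted p = 0.303). Mcm6 was at 188, 142, 204 and 122 TPM in Myc WT and at 127, 201, 59.4 and 66.2 TPM in Myc V394D (-0.67, SE 0.36, adjusted p = 0.366), with mouse 2 near the top of the Myc WT range; the difference was -1.01 without mouse 2 and -0.43 without mouse 3. Mcm5 was at 67.5, 50.4, 68.4 and 30.1 TPM in Myc WT and at 56.3, 33.8, 32.0 and 25.4 TPM in Myc V394D, and only mouse 4 of the latter lay below the lowest Myc WT library (-0.53, SE 0.32, adjusted p = 0.422). Mcm7 differed least of the ring: it was at 133, 117, 148 and 98.5 TPM in Myc WT and at 144, 104, 81.1 and 75.4 TPM in Myc V394D (-0.32, 95% interval -0.85 to 0.21, adjusted p = 0.524), and the difference was -0.51 without Myc V394D mouse 1 and -0.1992 without mouse 4.

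Of the regulators, none passed either. Gmnn, the CDT1 inhibitor, was at 24.9, 62.0, 64.7 and 41.6 TPM in Myc WT and at 38.2, 22.8, 36.4 and 22.0 TPM in Myc V394D (-0.63, SE 0.33, adjusted p = 0.361). Cdc6 was at 15.1, 17.6, 22.9 and 18.1 TPM in Myc WT and at 22.4, 11.1, 11.4 and 10.9 TPM in Myc V394D. For this loader mice 2 to 4 of the Myc V394D group were close together below every Myc WT library, and mouse 1 stood near the top of the Myc WT range (-0.42, SE 0.30, adjusted p = 0.491), and without mouse 1 the difference was -0.66. Cdt1, the other loader, was at 11.2, 19.0, 20.8 and 14.1 TPM in Myc WT and at 15.8, 23.4, 5.36 and 11.6 TPM in Myc V394D, with the widest interval of the set (-0.32, 95% interval -1.20 to 0.55, adjusted p = 0.706); without Myc V394D mouse 2 the difference was -0.61 and without Myc WT mouse 3 it was -0.1988. Myc V394D mouse 1 was the highest library of its group for 7 of 10 members and mouse 4 the lowest for 6 of 10. Without mouse 1, 7 of 10 members were lower at an unadjusted p under 0.05, against 21.5% of all genes tested in that fit, and still 0 of 10 passed after adjustment. Leaving out Myc WT mouse 3 or Myc V394D mouse 4 instead left 0 of 10 at an unadjusted p under 0.05, against 9.43 and 12.9% of all genes tested. Without Myc V394D mouse 1 the median was -0.75 for the members and -0.39 for all genes.

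**Figure D2:**
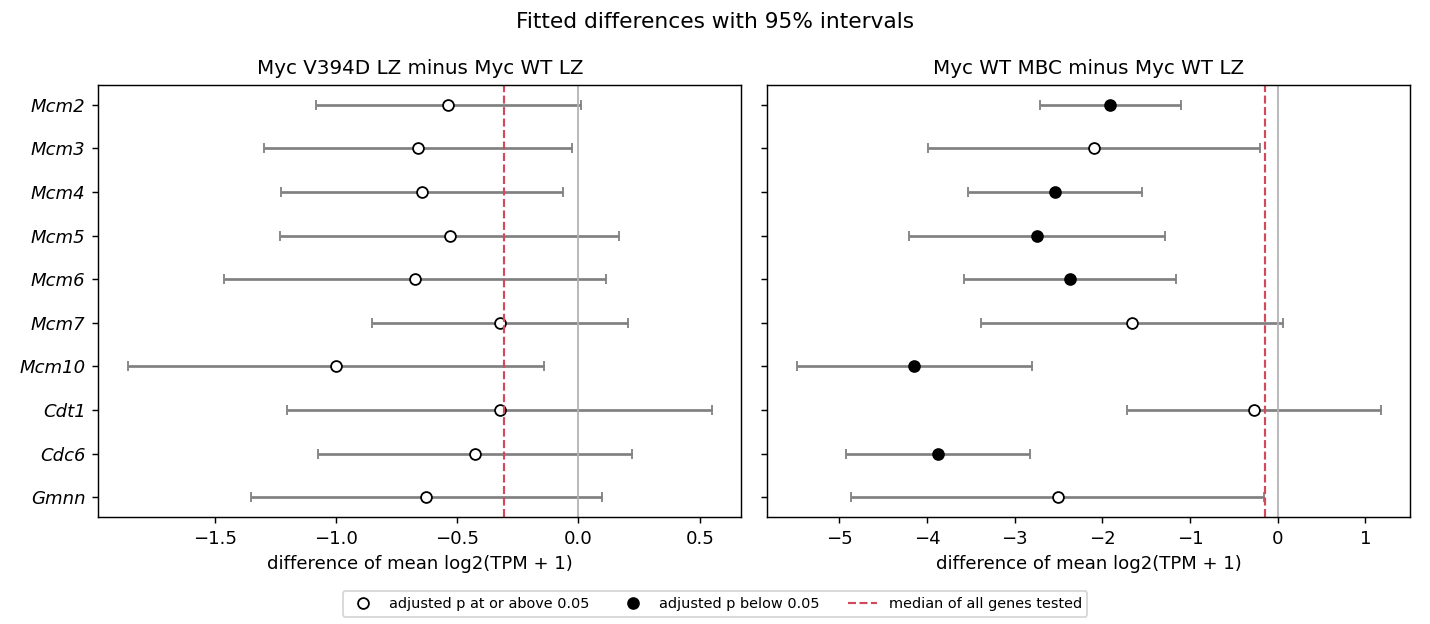
Difference in mean log2(TPM + 1) of each licensing gene from Myc WT LZ, with its 95% interval from limma, for Myc V394D LZ (left, 4 against 4 mice) and Myc WT MBCs (right, 3 against 4 mice); the horizontal scales differ, filled points passed an adjusted p of 0.05 and the dashed line is the median of all genes tested. All points lie left of the dashed line in both panels (on the left, Mcm7 turned to 0.019 with median-ratio scaling and Cdt1 to 0.037 without Myc V394D mouse 3), with 0 filled on the left and 6 on the right. On the left Mcm7 and Cdt1 lie at -0.02 relative to that line. With a pseudocount of 0.1, 8 of 10 members lay below the all-gene median in Myc V394D LZ and 9 of 10 in MBCs. With median-ratio scaling 8 of 10 did in Myc V394D LZ.

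Levels relative to other cycling genes in the same library do not depend on how the library was scaled. The summed TPM of Mcm2 to Mcm7 was 2.08 to 2.59 times that of Top2a, the topoisomerase of S to M phase, in Myc WT LZ and 1.65 to 1.96 times in Myc V394D LZ, without overlap. Against Mki67, the proliferation marker, the sum was 1.48 to 2.04 times in Myc WT and 0.90 to 1.55 times in Myc V394D. Against Pcna, the replication clamp, it was 1.75 to 2.64 and 1.74 to 3.30 times. The ratio thus lay lower in Myc V394D against Top2a, overlapped slightly against Mki67 and overlapped fully against Pcna. These denominators were picked after their values were seen, and the ratio, as a score over chosen genes, was given no test. A list of 12 general proliferation genes, Top2a and Mki67 among them, had a median log2 difference of -0.58 between genotypes, as did the licensing genes.

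The second comparison asked how MBCs differed from LZ B cells of Myc WT mice. Here 6 of 10 members fell (Mcm2, Mcm4, Mcm5, Mcm6, Mcm10 and Cdc6) and none rose, with the largest differences in Mcm10 (-4.14) and Cdc6 (-3.87), whose order turned with a pseudocount of 0.1 (-4.87 and -5.83) and without MBC mouse 3 (-3.56 and -3.78). By limma over 13245 genes, 5.04% of all genes passed as lower and 4.17% as higher. For 7 of 10 members (these 6 and Mcm3) every MBC library lay below every Myc WT LZ library, against 14.4% of all genes tested; for each of the 7 the exact permutation p was 0.0286, the smallest that 3 against 4 libraries allow. All 10 had a difference below 0, as did 55.3% of all genes tested, and the median was -2.44 for the members and -0.14 for all genes. MBCs and LZ cells came from the same mice, and with the mouse as a replicate block (mice 1, 3 and 4 alone) 2 of 10 members passed as lower, against 0.897% of all genes tested. The counts moved when a library was left out, and so did those over all genes. Without MBC mouse 1, 3 or 4, 6, 7 and 6 of 10 members passed as lower, against 4.43, 5.9 and 14% of all genes tested. Without Myc WT LZ mouse 1, 2 or 3, 3 of 10 passed each time, against 1.31, 1.04 and 1.03%, and without mouse 4, 4 of 10 passed, against 2%. In bulk RNA, fewer cycling cells and less of these RNAs per cell cannot be told apart.

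Cdc6 was listed at 0.03, 0.16 and 0.89 TPM in MBC mice 1, 3 and 4, where LZ cells of the same mice had 15.1, 22.9 and 18.1 TPM (log2 difference -3.87, SE 0.46, adjusted p = 0.00286, and 0.053 with the mouse as a block). Mcm10 was at 1.87, 0.38 and 6.57 TPM in MBCs against 35.4 to 74.0 in LZ (-4.14, SE 0.59, adjusted p = 0.00562, and 0.0333 with the block). For these genes, which act when a ring is loaded and when it is switched on, every MBC library lay below every LZ library of either genotype. Because 1 was added before the logarithm, the fitted difference understates the change of genes this low, and in TPM such values cannot be told from a failed estimate.

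Mcm4 was at 19.2, 7.28 and 26.7 TPM in MBC mice 1, 3 and 4, against 73.0 to 131 in Myc WT LZ (-2.54, SE 0.44, adjusted p = 0.0112, and 0.0494 with the block). Mcm2 was at 15.1, 9.43 and 19.4 TPM, against 42.0 to 74.9 (-1.91, SE 0.35, adjusted p = 0.0147, and 0.114 with the block). Both were lower in MBCs than in LZ cells in each of the 3 mice, Mcm2 by -1.89, -2.86 and -1.08 and Mcm4 by -2.34, -4.00 and -1.42 on the log2 scale in mice 1, 3 and 4. Mcm5 was at 19.4, 1.80 and 7.41 TPM, against 30.1 to 68.4 (-2.74, SE 0.64, adjusted p = 0.0327, and 0.0822 with the block), with mouse 3 lowest by far. Mcm6 was at 10.6, 39.0 and 64.9 TPM, against 122 to 204 (-2.37, SE 0.54, adjusted p = 0.0295, and 0.0578 with the block), with mouse 1 lowest.

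Mcm3, Mcm7, Gmnn and Cdt1 did not pass, with or without the mouse as a block, and their MBC libraries were spread widely. Within mice, Mcm3 and Gmnn were lower in MBCs than in LZ cells in 3 of 3, and Mcm7 and Cdt1 in 2 of 3. Mcm3 was at 8.16, 151 and 107 TPM in MBC mice 1, 3 and 4, all below the 173 to 297 TPM of Myc WT LZ (-2.09, SE 0.84, adjusted p = 0.147), and without mouse 1 the difference was -0.82. Mcm7 was at 9.83, 167 and 32.1 TPM, so that mouse 3 exceeded every LZ library of either genotype while mice 1 and 4 lay below all of them (-1.66, 95% interval -3.38 to 0.06, adjusted p = 0.198). Mouse 3 is the library with the erythroid transcripts; without it the difference of Mcm7 was -2.71, which passed, and without mouse 1 it was -0.73 (adjusted p = 0.416 by limma). Without that library 7 of 10 members passed. Gmnn was listed at 0 in mouse 1 and was at 28.0 and 17.5 TPM in mice 3 and 4, against 24.9 to 64.7 in Myc WT LZ (-2.51, SE 1.04, adjusted p = 0.160). Without mouse 1 its difference was -0.9958. Cdt1 was at 5.01, 9.90 and 41.0 TPM, against 11.2 to 20.8 in Myc WT LZ, so that it was below this range in mice 1 and 3 and above it in mouse 4, the library with most myeloid and T cell transcripts (-0.27, 95% interval -1.71 to 1.18, adjusted p = 0.828). Its difference was 0.35, -0.08 and -1.06 without MBC mouse 1, 3 or 4, and -0.42 and -0.14 without Myc WT LZ mouse 1 or 3. Cdt1 is overlapped on its strand by the long gene model Gm20388, so its reads may have been split between the models.

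Set against both LZ groups, means ran from Myc WT LZ through Myc V394D LZ to MBCs in 9 of 10 members, the exception being Cdt1. The same order of means was found for 22.8% of 13241 genes with at least 1 TPM on average over the 11 libraries. The MBC libraries also lay below every Myc V394D LZ library for 5 of 10 members, against 6.02% of these genes. The Myc WT LZ libraries are shared by both comparisons, so the shared direction is not independent.

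The proportions of the ring subunits were nearly alike in the Myc WT LZ libraries and varied widely between the MBC libraries. In Myc WT LZ the sum of Mcm2 to Mcm7 was 539 to 924 TPM, of which Mcm3 made up 31.6% on average, Mcm6 22.6%, Mcm7 17.3%, Mcm4 13.5%, Mcm2 7.80% and Mcm5 7.32%. The coefficient of variation of these shares over the 4 mice was 3.13 to 5.68% for each subunit but Mcm5, for which it was 17.4%. In Myc V394D LZ the sum was 346 to 658 TPM and the coefficients were 7.30 to 28.9%. Mcm7 there exceeded Mcm6 in 3 of 4 libraries, an order seen in 0 of 4 Myc WT LZ libraries. In MBC mice 1, 3 and 4 the sum was 82.4, 375 and 257 TPM, and the subunits had no common order. Mcm7 and Mcm3 made up 44.5 and 40.2% of the sum in mouse 3, whereas Mcm5 made up 0.48% there and 23.6% in mouse 1. The most abundant subunit exceeded the least abundant 3.97 to 5.77 times in Myc WT LZ, 2.95 to 6.17 times in Myc V394D LZ, and 2.38, 92.5 and 14.4 times in MBC mice 1, 3 and 4. MBC mice 1 and 3 are the libraries with the largest numbers of abundant LZ genes listed at 0, and the part of such values in the proportions was not tested.

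**Figure D3:**
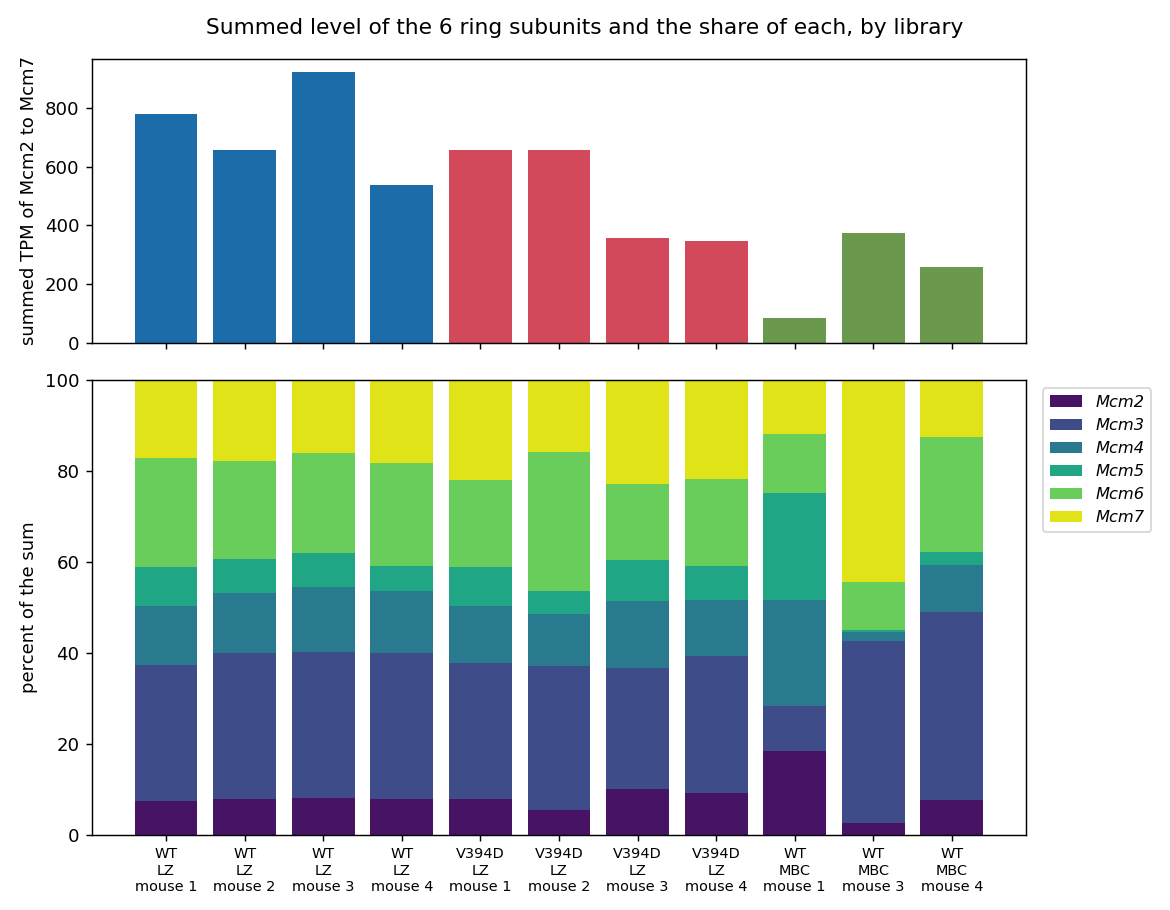
Summed TPM of Mcm2 to Mcm7 in each of the 11 libraries (top, bars from 0) and the percent of that sum held by each subunit (bottom). The shares are nearly alike in the 4 Myc WT LZ libraries and differ strongly between the 3 MBC libraries, with Mcm7 at 44.5% in mouse 3.

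Geminin and CDT1 oppose each other, and the ratio of their transcripts was given in each library. Cdt1 stood at 0.31 to 0.45 times Gmnn in Myc WT LZ and at 0.15 to 1.03 times in Myc V394D LZ. In MBCs the ratio was 0.35 in mouse 3 and 2.34 in mouse 4, and it could not be formed in mouse 1. Whether the spread of the ratio differs between groups was not tested.

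The genes that act before and after loading were described from companion lists. In MBCs against LZ, 1 of 6 ORC subunits passed as lower, Orc6 (-2.43, adjusted p = 0.0105, and 0.0912 with the mouse as a block). Orc1 (-2.20, adjusted p = 0.0546), Orc5 (-1.45), Orc4 (-0.88), Orc2 (-0.38) and Orc3 (0.74) did not pass. Of the helicase activation and firing genes, 6 of 13 passed as lower, where 5.04% of all genes tested did. They were led by Gins1 (-4.52), Cdc45 (-3.74), Gins2 (-3.36) and Gins3 (-2.70), which encode subunits that join the MCM ring to form the active helicase. Gins4, which encodes a further GINS subunit, was not among these leading genes. It was at 4.07, 17.2 and 26.1 TPM in MBC mice 1, 3 and 4, against 31.2 to 47.6 in Myc WT LZ. Gins1 was at 22.9 to 32.8 TPM in Myc WT LZ and was listed at 0, 0 and 0.85 TPM in MBC mice 1, 3 and 4. Donson, picked out here after its values were seen, was the member of this list with a difference above 0 (1.83, adjusted p = 0.0546).

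Beside 5.04% of all genes tested, the other replication genes passed as lower in MBCs as follows. Of these, 1 of 4 other MCM proteins and partners passed as lower (Mcm8, which acts in recombination, at -2.45) and 2 of 9 genes of licensing factor turnover (Cdc20 at -3.85 and Dtl, which directs CDT1 to destruction, at -2.93). Polymerase, clamp and Okazaki maturation genes passed as lower in 9 of 25 cases, led by Pole3 (-3.16), Dna2 (-2.88), Lig1 (-2.61) and Rfc4 (-2.46). Fork protection and checkpoint genes did so in 4 of 10, among them the kinase gene Chek1 (-3.87) and Tipin (-2.96). General proliferation genes did so in 11 of 12, led by Tyms (-5.26), Birc5 (-3.89), Cdk1 (-3.47) and Plk1 (-3.29). No gene of any of these lists passed as higher. With the mouse as a block, where 0.897% of all genes tested passed as lower, the counts were 0 of 6 for ORC, 2 of 13 for activation and firing, 0 of 4 and 1 of 9 for other MCM proteins and turnover, 2 of 25 for polymerases, 2 of 10 for fork genes and 5 of 12 for proliferation genes.

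In Myc V394D against Myc WT LZ, no gene of these lists passed after adjustment by limma. At an unadjusted p under 0.05, 2 of 6 ORC genes, 3 of 13 activation and firing genes, 0 of 4 other MCM proteins and partners, 2 of 9 turnover genes, 8 of 25 polymerase genes, 2 of 10 fork genes and 3 of 12 proliferation genes were lower, against 15.7% of all genes tested, and none was higher; these counts, and the medians and values that follow, were taken with the TPM as deposited only, and not under the other scalings. By the smallest p, the helicase activation and firing genes were led by Gins4, a GINS subunit, at 40.6, 47.6, 41.7 and 31.2 TPM in Myc WT and 20.0, 11.4, 10.1 and 11.7 TPM in Myc V394D. Its groups did not overlap, but it did not pass (-1.56, SE 0.27, adjusted p = 0.0659). Gins2 followed (-0.94, adjusted p = 0.138). The ORC genes had the lowest median of the lists (-0.68), with Orc5 at -1.32 (adjusted p = 0.154) and Orc6 at -0.84 (adjusted p = 0.172), while Orc2 (-0.70), Orc4 (-0.65), Orc1 (-0.37) and Orc3 (-0.17) had an unadjusted p above 0.05. Polymerase genes had a median of -0.54 and were led by Prim1, a primase subunit (-1.01, adjusted p = 0.0956), and Pole4 (-1.48, adjusted p = 0.0991). Fork genes were led by Rad1 (-1.68, adjusted p = 0.124) and had a median of -0.44. Proliferation genes had a median of -0.58, the same to 2 decimals as the licensing genes.

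**Figure D4:**
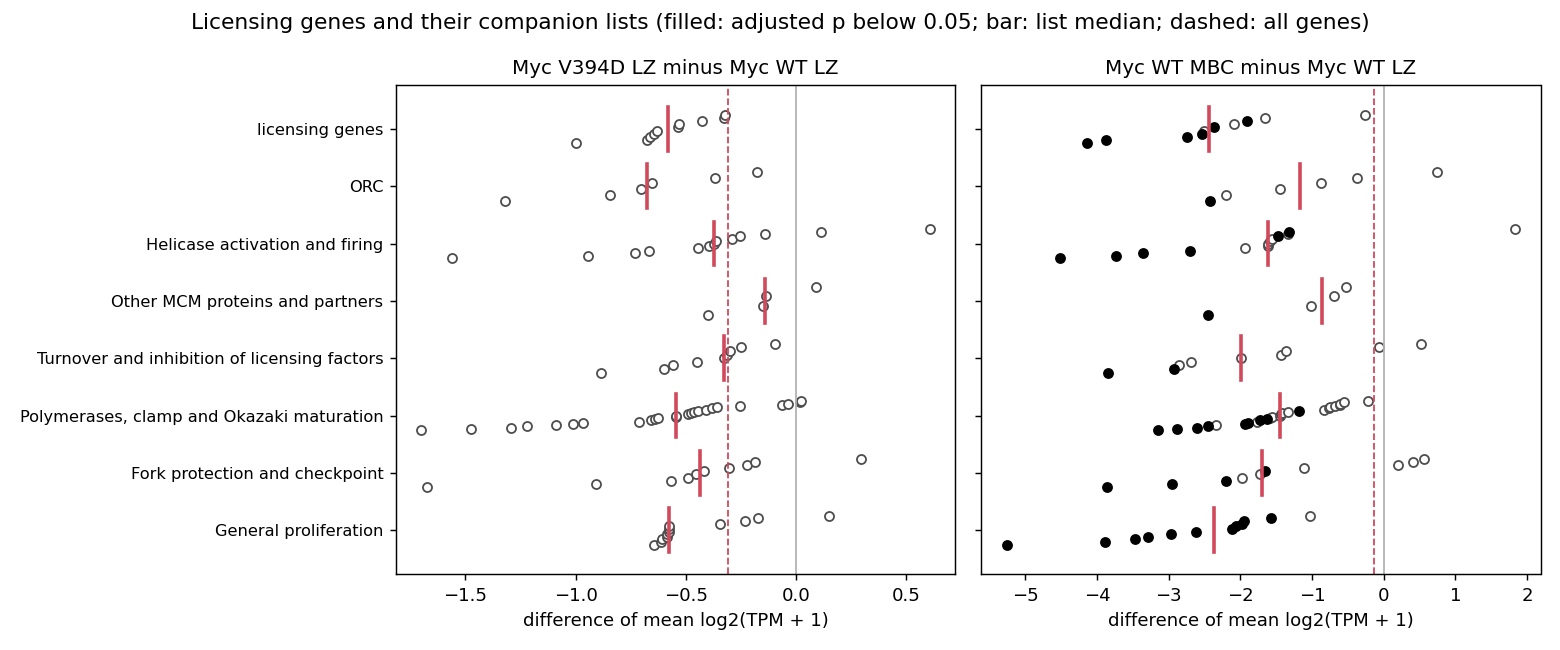
Difference in mean log2(TPM + 1) from Myc WT LZ of each licensing gene and each tested gene of the 7 companion lists, for Myc V394D LZ (left) and Myc WT MBCs (right); red bars are list medians, the dashed line is the median of all genes tested and filled points passed an adjusted p of 0.05. No point is filled on the left, and on the right the medians run from -0.86 for other MCM proteins to -2.44 for the licensing genes.

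Over all 11 libraries, the genes whose log2(TPM + 1) was most like the mean of the z-scored Mcm2 to Mcm7 values were Kif11, a spindle motor (r = 0.990), Prdx1 (0.985), Ndc1 (0.983), Hmgb2 (0.982), Msh6, a mismatch repair gene (0.981), Aurkb, a mitotic kinase (0.977), H2afz (0.974), Siva1 (0.973), Gapdh (0.971) and Rps2 (0.970), out of 13241 genes. This is a description across 11 libraries of 3 groups, which share mice, scaling and the step between cell types. Cdc6 had r = 0.943 and Cdt1 r = 0.384 with the same mean. Within the 8 LZ libraries, the correlation with the mean of the other ring subunits was 0.837 to 0.979 for Mcm2 to Mcm7, 0.732 for Cdc6, 0.660 for Mcm10, 0.618 for Cdt1 and 0.461 for Gmnn.

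The members lie on 8 chromosomes (GENCODE M21, GRCm38), and some have close neighbours. Mcm4 (chr16:15623897-15637400, minus strand) starts 466 bases from Prkdc, a DNA repair kinase gene read in the opposite direction. Prkdc was at 26.7 to 31.1 TPM in Myc WT LZ and at 34.0 to 37.3 TPM in Myc V394D LZ, so that its groups did not overlap in the direction opposite to Mcm4, as 0.816% of all genes tested did in that direction, but it did not pass (0.34, adjusted p = 0.420). In MBC mice 1, 3 and 4 it was at 67.4, 29.2 and 47.8 TPM, where Mcm4 fell (0.67 for Prkdc, adjusted p = 0.238). Mcm7 (chr5:138164583-138172422, minus strand) starts 420 bases from Ap4m1, which had differences of -0.16 in Myc V394D LZ and -0.77 in MBCs and did not pass in either (adjusted p = 0.882 and 0.283). Mcm7 also overlaps the end of Cops6 on the other strand, which strand-specific counting keeps apart. The microRNA genes Mir25, Mir93 and Mir106b lie within Mcm7, and all 3 were listed at 0 TPM in every library, so these data give no level for them.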

How the data were processed

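RNA of 11 libraries was sequenced by the authors, aligned with STAR 2.5.2a and quantified with RSEM 1.3.0 on the mm10 (GRCm38) transcriptome with a strand-specific setting; the deposited values are TPM of 48795 Ensembl genes with 2 decimals. No reads or counts were used, so no counting error can be given, and the authors' own differential expression was not used. Symbols and coordinates came from GENCODE M21, in which 48349 genes had a symbol.

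Groups were compared with limma 3.58.1 (trend) in R 4.3.3 on log2(TPM + 1), after genes under 1 TPM on average across the fitted libraries were left out. Each fit held the libraries of its own 2 groups alone. p-values were two-sided and adjusted by Benjamini-Hochberg over all genes tested, with a threshold of 0.05. Single members were also tested by a two-sided exact permutation test of the difference in means over 70 groupings (4 against 4) or 35 (3 against 4), for both of which the smallest possible p is 0.0286. Intervals are limma's 95% intervals. Scripts were tested on simulated data.

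By their titles, equally numbered Myc WT MBC and LZ libraries were taken from 1 mouse; the correlation of their deviations from the group means over 13245 genes was 0.01 for mouse 1, 0.01 for mouse 3 and -0.05 for mouse 4. Because the mice are shared, and not because of these correlations, a fit with the mouse as a replicate block was run beside the unblocked one. Myc V394D mice share only numbers with Myc WT mice and were not paired.

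The members, companion lists and marker lists were chosen with earlier results of these data known. Named beside the 10 members and the 6 ORC genes were, from each companion list, at most the 4 genes with the largest difference among those past the threshold or, where none passed, the 2 with the smallest p, and the 10 genes most like the mean of Mcm2 to Mcm7. Outside this rule, Donson, Gins4 in MBCs, Jchain, the denominators Top2a, Mki67 and Pcna, and neighbouring or overlapping genes were named after their values were seen. Alternatives were another pseudocount (0.1), no filter or a mean of at least 5 TPM, median-ratio scaling, quantile normalization, removal of 356 ribosomal RNA genes, no trend, all 3 groups in 1 fit, and each library left out.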

Additional observations from a re-analysis of the deposited data

Results flagged for a closer look

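Of 20 pairs of a licensing gene and an LZ group examined for a library far from the others, 1 was picked out: Cdc6 in Myc V394D LZ, where mouse 1 was at 22.35 TPM and mice 2, 3 and 4 were at 11.13, 11.41 and 10.93 TPM. The rule compares the gap to the nearest library with the group's range at Dixon's 95% critical value, at which about 1 in 20 groups is picked out by chance for a single gene; the members are correlated across libraries. Mouse 1 was also the highest Myc V394D library for 7 of 10 licensing genes. The 3 MBC libraries are too few for this rule.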

How the results depend on the processing

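For Myc V394D against Myc WT LZ, 0 of 10 members passed in any alternative, and their median stayed below 0, from -0.75 (without Myc V394D mouse 1) to -0.25 (median-ratio scaling). The count over all genes, 6 with all libraries, was 0 with a pseudocount of 0.1, without a filter, with median-ratio scaling and with all 3 groups in 1 fit, 1 with quantile normalization or without ribosomal RNA genes, and 15 with a mean of at least 5 TPM; leaving out a library gave 0 (without Myc WT mouse 2 or 4) to 254 (without Myc V394D mouse 1). Median-ratio scaling moved the median of all genes from -0.31 to -0.01 and left 0 members at an unadjusted p under 0.05, with a member median of -0.24 relative to it. The difference of Mcm7 reversed to 0.019 with median-ratio scaling; that of Cdt1 was -0.61 without Myc V394D mouse 2 and reversed to 0.037 without mouse 3. The cause was not tested.

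For MBCs against LZ, 6 of 10 members passed with all libraries, 4 without a filter or without a trend (Mcm5 and Mcm6 not passing), 2 with the mouse as a replicate block (Mcm4 and Mcm10), and 3 (without Myc WT LZ mouse 1, 2 or 3) to 7 (without MBC mouse 3) when a library was left out. The blocked fit uses 6 libraries and has fewer degrees of freedom. The count over all genes, 1219, was 248 with the block and 608 without a filter; leaving out a library gave 342 (without Myc WT LZ mouse 2) to 2754 (without MBC mouse 4). Of 16 alternatives, Mcm4 and Mcm10 passed in 16, Cdc6 in 15, Mcm2 in 12, Mcm5 and Mcm6 in 9, Mcm7 in 1 and Mcm3, Cdt1 and Gmnn in 0. The median of the members ran from -2.85 to -1.80. The difference of Cdt1 reversed to 0.35 without MBC mouse 1 and was -1.06 without MBC mouse 4. The cause was not tested. TPM hold no depth, so a value at or near 0 cannot be told from a failed estimate.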
